A study of Mus musculus with 18 samples.

Results

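Interleukin-6 (IL-6) and interleukin-10 (IL-10) signal through paired receptor chains that activate JAK kinases and the transcription factor STAT3, and SOCS proteins are inhibitors of cytokine receptor signalling that such signals induce. The expression of 10 genes of this axis was examined, chosen by symbol among the 36172 genes listed: the ligands Il6 and Lif, the receptor chains Il6ra, Il6st, Il10ra and Il10rb, and the inhibitors Socs1, Socs2, Socs3 and Cish. The samples were brains of Cx3cr1-cre/ERT2+; NuTRAP+ mice of both sexes, in which tamoxifen, given at about 3 months of age, turned on a ribosomal protein carrying an EGFP tag wherever Cx3cr1 was expressed. In the brain these cells are mainly microglia, and border macrophages and some blood monocytes also express Cx3cr1, so the tag marks a lineage rather than a single cell type. At 3 to 4 weeks after tamoxifen, mice were injected intraperitoneally with 5 mg/kg lipopolysaccharide (LPS, a bacterial outer membrane component) or phosphate-buffered saline (PBS) and collected 24 h later. The paper states that a delay of this length was meant to keep short-lived blood monocytes from carrying the label. Each hemisected brain gave an input RNA library from the whole lysate and a positive library of RNA on ribosomes pulled down by the tag (translating ribosome affinity purification, TRAP). All groups carried the Cre and NuTRAP alleles and had received tamoxifen, PBS animals included.

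The 17 libraries used came from 9 animals in 4 groups: Input PBS and Positive PBS (n = 4 each, from animals 268, 272, 273 and 506), Input LPS (n = 4, animals 266, 267, 270 and 507) and Positive LPS (n = 5, the same LPS animals and 271). Sex was not balanced between treatments: PBS animals 268 and 506 were female and 272 and 273 male, while among the LPS animals only 267 was male. The Input LPS library of animal 271 held 1252 counts and was left out. The others held between 22968939 and 35123345 counts, and replicate libraries of a group correlated at r of 0.966 to 0.993 across genes. The 7 microglia markers checked (Cx3cr1, P2ry12, Tmem119, Csf1r, Aif1, C1qa and Itgam) were all higher in the positive fraction than in input under both treatments. Their summed level was 6704 to 10114 normalised counts in input and 121919 to 167278 in the positive fraction. All 5 border macrophage markers were also higher in the positive fraction under both treatments, and endothelial markers were in 7 of 7 (PBS) and 5 of 7 (LPS, with 1 lower). Of 6 neuron markers, 3 were higher in the positive fraction under each treatment. Of 6 astrocyte markers, 1 was higher there and 2 lower after PBS, and 1 was higher and 3 lower after LPS. Their mean summed level was 98646 in Input PBS, 121406 in Positive PBS, 117055 in Input LPS and 119821 in Positive LPS. All 5 oligodendrocyte markers were lower in the positive fraction under both treatments. Which cells gave the changes seen in both fractions was not tested. In these bulk lysates and pulldowns, fewer cells of a type and less RNA per cell cannot be told apart.

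IL-6 binds its own receptor chain, encoded by Il6ra, and the complex then recruits gp130, encoded by Il6st, which is the signalling chain shared with leukaemia inhibitory factor (Lif), oncostatin M and related cytokines. IL-10 binds the chain encoded by Il10ra, with Il10rb as the shared second chain, and is a major brake on macrophage and microglial inflammatory responses. Socs3 is a STAT3 target whose protein blocks gp130 signalling, Socs1 restrains interferon receptors, and Socs2 and Cish are best known as STAT5 targets that restrain growth hormone and related receptors.

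STAT dimers bind the palindrome TTCNNNGAA, which reads the same on both strands, and the promoter stretches of the SOCS genes that hold it are shown because Socs3 was the member that moved most with LPS. Of 7 members with an entry among the RefSeq promoters (GRCm38.p6, 250 bases before to 50 after the annotated start), Socs3 held 1 match and Cish held 2. Il6, Lif, Il6ra, Il6st and Socs1 held none in this window, and Il10ra, Il10rb and Socs2 had no entry. The palindrome was present in 8.30% of the 32851 promoter windows of the same length. Capitals mark the palindrome, and each stretch is written 5′ to 3′ on the strand of the gene. The Socs3 stretch lies upstream of its start at chr11:117969457-117969556 (minus strand), and the Cish stretch lies over its RefSeq start at chr9:107296655-107296684 (plus strand). In the deposited gene coordinates Cish starts at 107296689, and by these its stretch lies upstream of the gene.
Socs3: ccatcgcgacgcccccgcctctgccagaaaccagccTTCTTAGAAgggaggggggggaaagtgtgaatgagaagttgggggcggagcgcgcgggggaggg
Cish: agttTTCCTGGAAagTTCTTGGAAatctgt
The Socs3 match began 154 bases before the start, and the Cish matches began at bases 1 and 12, counted from the RefSeq starts. A match describes the sequence only. Of these promoters with a match, Socs3 rose with LPS in both fractions and Cish did not pass the test in either.

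Socs3 (chromosome 11, 117966087-117969366, minus strand, Mm10) rose with LPS in both fractions, and it rose more in the positive fraction. Values here and below are normalised counts, the estimated count divided by the size factor of its library, and libraries are listed in the order of the animal numbers. In Positive PBS, Socs3 was at 308, 137, 238 and 223, and in Positive LPS at 2958, 2765, 1818, 3392 and 2369. Every LPS library lay at several times the highest PBS library. The fitted change was 3.56 on the log2 scale (SE 0.22, edgeR adjusted p = 1.36e-09), and the ratio of group means was 11.7.

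In input, Socs3 was at 126, 93.9, 118 and 101 in PBS animals and at 649, 505, 508 and 428 in LPS animals. The groups did not overlap here either, and the highest input value with LPS was below the lowest Positive LPS value. The change was 2.25 (SE 0.22, edgeR adjusted p = 1.62e-06), a ratio of means of 4.77. The difference between both changes, tested as an interaction, was 1.31 (SE 0.30, edgeR adjusted p = 0.0103). Over the animals with both fractions, the positive library held 1.45 to 2.44 times its own input after PBS and 3.57 to 5.52 times after LPS. The labels do not name a batch, but animals 506 and 507 carry numbers apart from the others. Between these 2 animals alone Socs3 differed 10.6-fold in the positive fraction and 4.24-fold in input. Without them the difference between fractions was 1.29 (SE 0.37) and did not pass the test (edgeR adjusted p = 0.0930). Summed neutrophil markers also rose with LPS in both fractions (their values stand with Il6ra), and their part in the Socs3 values was not tested.

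**Figure D1:**
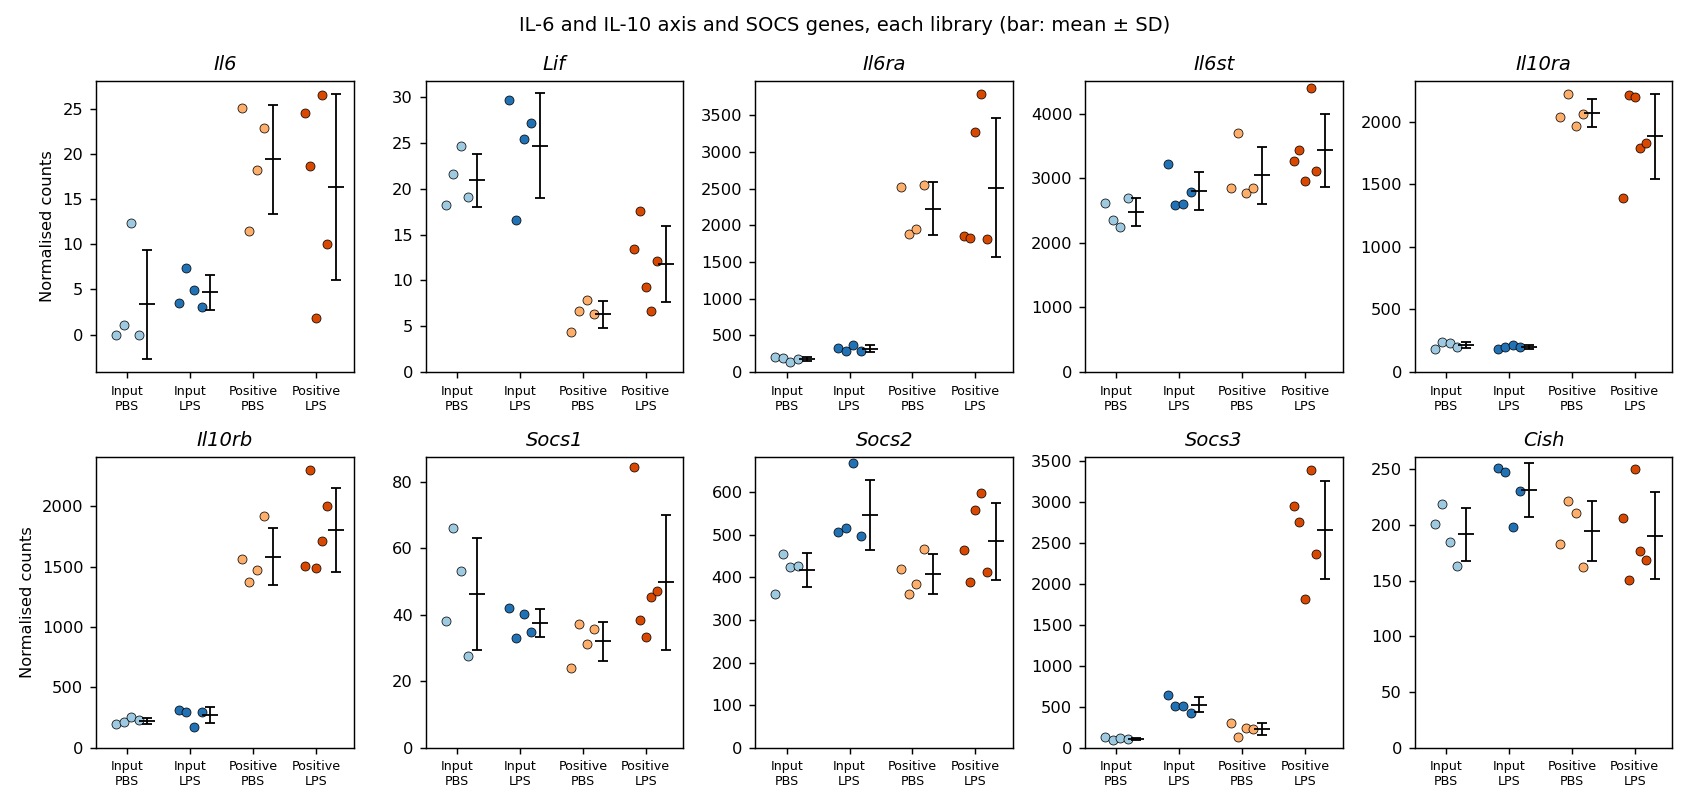
Normalised counts (y axis, linear, scaled per gene) of the 10 genes in each of the 17 libraries, by group (x axis). Each point is a library and the bar beside it gives the mean ± SD. Socs3 is the gene whose Positive LPS libraries, 1818 to 3392, stand clear of all others, while Il6ra, Il10ra and Il10rb separate by fraction.

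Of the 8 genes that passed the filter on low counts (over 20 normalised counts in every library of a group), Socs3 was the only one called in the positive fraction with LPS, and Socs3 and Il6ra were called in input. A call required an adjusted p under 0.05 and a difference of more than 25%. For comparison, 33.8% of the 14803 genes tested were called in the positive fraction (19.0% higher with LPS) and 12.4% in input (7.16% higher). The median change of the 8 genes was 0.18 in the positive fraction and 0.27 in input, against 0.01 and 0.00 over all genes tested. For the difference between fractions, Socs3 was the only one of 8 called, with 6.88% of all genes called (5.46% with the higher log2 LPS change in the positive fraction).

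**Figure D2:**
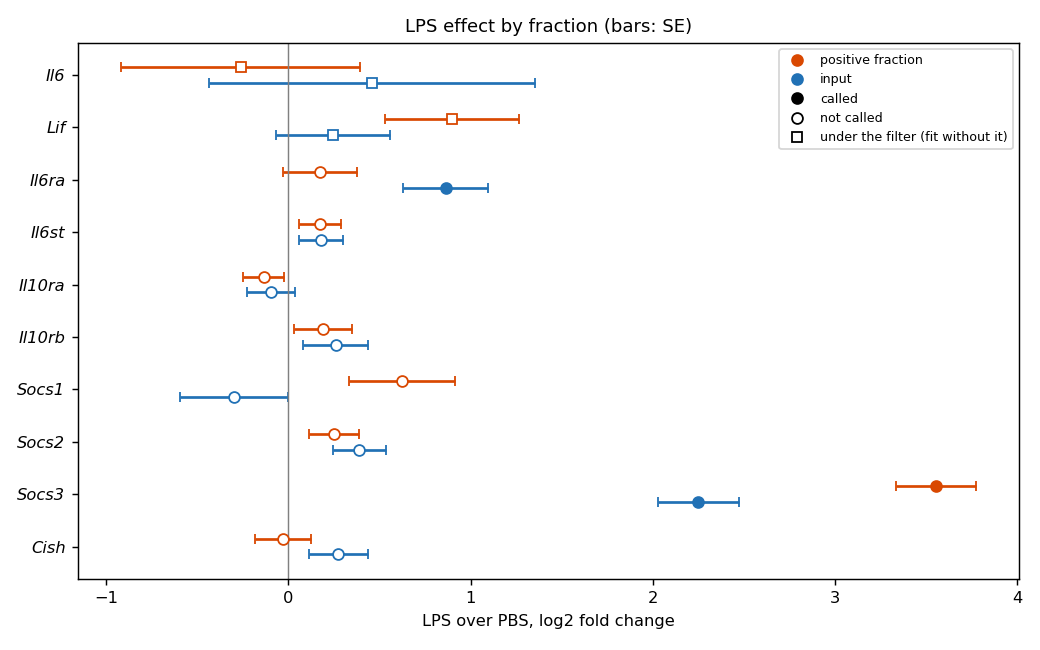
Fitted log2 fold change, LPS over PBS (x axis), of each gene in the positive fraction (orange) and in input (blue), with SE bars. Filled symbols passed the test, and squares are genes under the filter, from the fit without it. Socs3 lies at 3.56 and 2.25, and Il6ra is the other gene with a filled symbol, in input at 0.86.

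The ligand Il6 was near the limit of detection in input and low in the positive fraction. It was at 0, 1.0, 12.3 and 0 in Input PBS and at 3.5, 7.4, 4.9 and 3.0 in Input LPS. In input libraries 3 counts correspond to between 2.27 and 3.10 normalised counts, with 2.27 to 2.76 in Input LPS. In positive libraries they correspond to between 2.78 and 3.92. In the positive fraction it was at 25.0, 11.4, 18.3 and 22.9 after PBS and at 24.5, 18.6, 1.9, 26.5 and 10.1 after LPS. The treatment groups overlapped in both fractions, and Il6 failed the filter. In the fit without a filter, the LPS change within the positive fraction was -0.26 (SE 0.66, edgeR adjusted p = 0.832) and within input 0.46 (SE 0.90, adjusted p = 0.834), so no rise of Il6 transcripts was detectable at 24 h at this depth. The positive fraction held more Il6 than input in PBS animals (2.48, SE 0.81, adjusted p = 0.0234), with 1 input library at 12.3 inside the positive range. The same comparison in LPS animals was 1.76 (SE 0.74, adjusted p = 0.0625). In that fit 23.4% of genes were called for LPS in the positive fraction, 27.8% for the fractions in PBS animals and 37.7% for the fractions in LPS animals.

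Lif had the opposite distribution over the fractions. It was at 18.2, 21.7, 24.7 and 19.1 in Input PBS and at 29.7, 16.5, 25.5 and 27.2 in Input LPS, against 4.4, 6.7, 7.8 and 6.4 in Positive PBS and 13.5, 17.6, 9.3, 6.6 and 12.1 in Positive LPS. Input and positive did not overlap after PBS and met at the edge after LPS, where the highest positive library exceeded the lowest input library. Without a filter, positive over input was -1.72 (SE 0.37, edgeR adjusted p = 0.0010) in PBS and -1.06 (SE 0.31, adjusted p = 0.00821) in LPS animals. The LPS change in the positive fraction was 0.90 (SE 0.37, adjusted p = 0.0795). When Input LPS 267 was left out, Lif passed the filter and that change was called (0.90, adjusted p = 0.0377). It passed through the remaining Input LPS libraries, at 29.7, 25.5 and 27.2. The library left out is in neither group of this comparison and the change stayed at 0.90, so the call adds no evidence of a rise.

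The ligand of the IL-10 receptor, Il10, is not one of the 10 genes and was looked up because its receptor is among them. Its highest normalised count in a library was 0.95 in Input PBS, 4.59 in Input LPS, 2.55 in Positive PBS and 12.3 in Positive LPS, and it failed the filter. Its lowest Positive LPS value, 2.01, was under the limit of 3 counts.

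Il6ra, the chain that binds IL-6, was a gene of the positive fraction. It was at 209, 186, 132 and 176 in Input PBS and at 2517, 1875, 1954 and 2555 in Positive PBS. No library of one fraction came near the other. The positive fraction exceeded input by 3.66 (SE 0.25, edgeR adjusted p = 7.50e-10) in PBS animals, a ratio of means of 12.7, and by 2.97 (SE 0.23, adjusted p = 3.57e-09) in LPS animals, a ratio of 7.86.

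With LPS, Il6ra rose in input, to 334, 289, 373 and 283, all above the Input PBS libraries (0.86, SE 0.24, edgeR adjusted p = 0.0190). This call was lost without Input PBS 273 (0.75, adjusted p = 0.0698), without Input LPS 270 (0.78, adjusted p = 0.0613) and without animals 506 and 507 (0.92, adjusted p = 0.0612). In Positive LPS it was at 1854, 1827, 3275, 3783 and 1818. Animals 270 and 271 were above all PBS libraries and the other 3 animals were below the lowest one, so the groups overlapped (0.17, SE 0.20, adjusted p = 0.517). The summed level of 8 neutrophil markers, of which 4 of 5 tested rose with LPS in each fraction, was 462 to 786 in Input PBS, 739 to 1578 in Input LPS, 144 to 301 in Positive PBS and 415 to 1008 in Positive LPS. Ly6g was listed at 0 throughout. The part of neutrophils in the Il6ra values was not tested.

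Whether LPS acted differently on Il6ra in the fractions depended on how animals were handled. The difference between the LPS changes was -0.69 (SE 0.31, edgeR adjusted p = 0.226) with libraries taken as independent. With the animal as a replicate block, a fit in which animal 271 carries no information because it has no input library, it was -0.92 (SE 0.16, edgeR adjusted p = 0.00159) and was called. Leaving out Positive LPS 271 from the unblocked fit gave -0.88 (adjusted p = 0.0614). Within animals, the positive library held 10.0 to 14.7 times its own input after PBS and 5.54 to 8.76 times after LPS, ranges that did not overlap.

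Both IL-10 receptor chains were enriched in the positive fraction, and neither passed the test for LPS there or in input. Il10ra was at 187, 242, 228 and 201 in Input PBS, at 184, 203, 219 and 197 in Input LPS, at 2034, 2219, 1961 and 2061 in Positive PBS and at 1387, 2212, 2193, 1786 and 1832 in Positive LPS. The fractions were separated by a wide gap and the treatments overlapped, with animal 266 lowest after LPS. Positive over input was 3.27 (SE 0.13, edgeR adjusted p = 1.01e-12) in PBS and 3.23 (SE 0.13, adjusted p = 6.25e-13) in LPS animals. LPS changed Il10ra by -0.14 within the positive fraction (SE 0.11, adjusted p = 0.356) and by -0.09 within input (SE 0.13, adjusted p = 0.690), neither of which was called.

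Il10rb, which also serves the interferon lambda and IL-22 receptors, was at 200, 214, 258 and 228 in Input PBS, at 315, 295, 172 and 295 in Input LPS, at 1564, 1372, 1473 and 1920 in Positive PBS and at 1507, 2304, 1488, 1709 and 2005 in Positive LPS. Here too only the fractions separated. Positive over input was 2.81 (SE 0.18, edgeR adjusted p = 5.27e-10) in PBS and 2.74 (SE 0.18, adjusted p = 3.12e-10) in LPS animals, and the LPS change was 0.19 (adjusted p = 0.363) in the positive fraction and 0.26 (adjusted p = 0.372) in input.

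Il6st, the shared signalling chain, was spread over both fractions. It was at 2616, 2350.5, 2248 and 2700 in Input PBS, at 3218, 2592, 2604 and 2790 in Input LPS, at 2849, 3704, 2778 and 2850 in Positive PBS and at 3270, 3430, 2950, 4397 and 3116 in Positive LPS. Positive over input was 0.30 (SE 0.12, edgeR adjusted p = 0.0525) in PBS, where the groups did not overlap, and 0.29 (SE 0.12, adjusted p = 0.0351) in LPS animals. The latter was a difference of under 25% and was not called. Leaving out 1 library gave calls after LPS without Input LPS 266 (0.37), Positive LPS 270 (0.34) or Positive LPS 507 (0.33), and after PBS without Input PBS 506 or Positive PBS 273 (both 0.34). The LPS change was 0.17 in the positive fraction (adjusted p = 0.242) and 0.18 in input (adjusted p = 0.366).

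**Figure D3:**
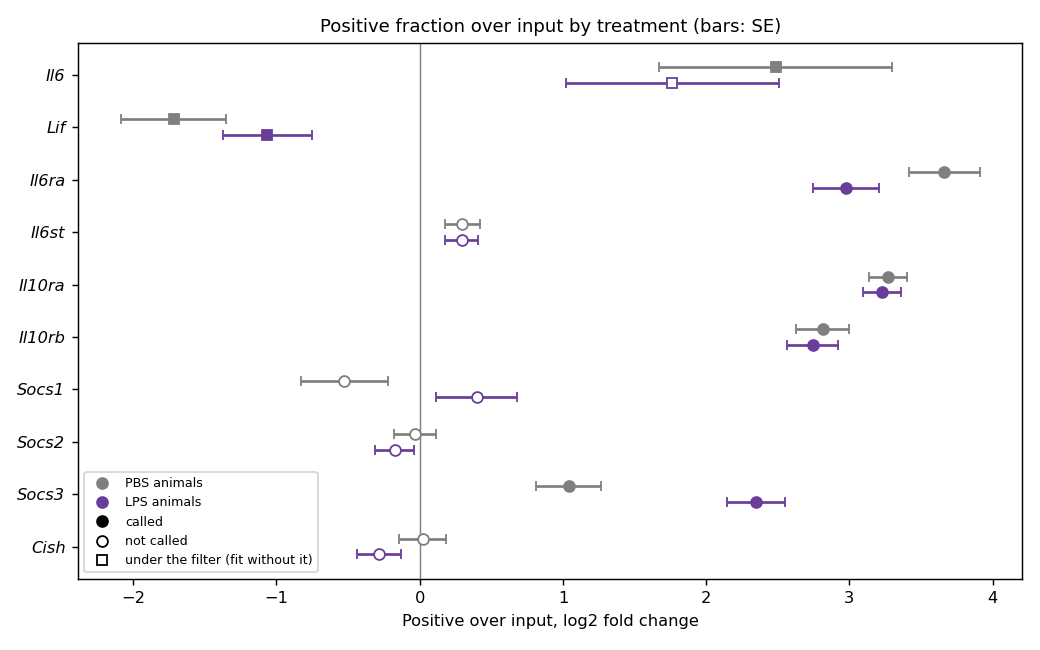
Fitted log2 fold change, positive fraction over input (x axis), in PBS (grey) and LPS animals (purple), with SE bars. Filled symbols passed the test, and squares are genes under the filter, from the fit without it. Il6ra, Il10ra and Il10rb lie between 2.74 and 3.66, Il6st near 0.3, and Socs3 moves from 1.04 to 2.35.

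In both treatments 4 of the 8 tested genes (Il6ra, Il10ra, Il10rb and Socs3) were called higher in the positive fraction and none was called lower. Of all genes tested, 39.8% were called in PBS animals (21.0% higher) and 53.4% in LPS animals (27.6% higher). The LPS and fraction comparisons share libraries and are not independent of each other. Summed border macrophage markers, which were enriched with the receptor chains, were at 366 to 516 in Input PBS, 415 to 570 in Input LPS, 4219 to 8622 in Positive PBS and 3074 to 5331 in Positive LPS, and their part in the receptor values was not tested.

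Per kilobase of exon, the members could be compared with each other. In Positive PBS the order of mean levels was Il10rb (855 ± 129 normalised counts per kb, SD), Il10ra (591 ± 31.0), Il6st (351 ± 50.8), Il6ra (257 ± 41.7), Socs2 (151 ± 17.1), Socs3 (88.7 ± 27.5), Cish (53.2 ± 7.42), Il6 (17.02 ± 5.29), Socs1 (11.0 ± 2.03) and Lif (1.56 ± 0.36). The ranges of Il6 and Socs1 overlapped, as did those of Socs3 and Cish, while the other neighbours were apart. The Socs1 length used, 2908 bases, exceeds the span of the gene in the deposited coordinates (chromosome 16, 10783809-10785536). A shorter length would raise the Socs1 values, so its order against Il6 is not settled. In Positive LPS, Socs3 was first at 1042 ± 234 per kb, with a range of 712 to 1329 that overlapped that of Il10rb (974 ± 189). In input Il6st was first under both treatments, at 286 ± 24.7 per kb after PBS and 323 ± 33.7 after LPS, and Socs3 moved from the sixth place (42.9 ± 5.76) to the second (205 ± 36.0), level with Socs2 (202 ± 30.1).

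The other members of the inhibitor group did not follow Socs3. Socs1 was low in every group, at 38.3, 66.0, 53.2 and 27.6 in Input PBS, 42.0, 33.1, 40.2 and 34.8 in Input LPS, 24.0, 37.1, 31.3 and 35.7 in Positive PBS and 84.5, 38.3, 33.4, 45.3 and 47.3 in Positive LPS. The groups overlapped, and animal 266 was far above the other Positive LPS libraries. The LPS change was 0.62 in the positive fraction (SE 0.29, edgeR adjusted p = 0.0967) and -0.30 in input (SE 0.30, adjusted p = 0.553), and the difference between them was 0.92 (SE 0.42, adjusted p = 0.225).

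Socs2 was at 362, 455, 424 and 427 in Input PBS and at 505, 515, 667 and 497 in Input LPS. All LPS input libraries exceeded all PBS ones, with animal 270 the highest, but the change of 0.39 did not pass the test (SE 0.14, edgeR adjusted p = 0.0814). It was called when only the input libraries were fitted (0.38, adjusted p = 0.0491) and with the deposited log2 values in limma (0.41, adjusted p = 0.0456). In the positive fraction Socs2 was at 420, 360, 385 and 466 after PBS and at 464, 388, 558, 598 and 413 after LPS (0.25, SE 0.14, adjusted p = 0.159).

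Cish was at 200, 219, 184 and 163 in Input PBS, 251, 247, 198 and 230 in Input LPS, 183, 222, 210 and 162 in Positive PBS and 206, 150, 250, 177 and 168 in Positive LPS. All groups overlapped. The LPS change was 0.27 in input (SE 0.16, edgeR adjusted p = 0.286) and -0.03 in the positive fraction (SE 0.16, adjusted p = 0.890). The sign of the latter turned in some fits with other libraries.

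Among the 8 SOCS family genes, counted per kilobase, Socs3 took 2.17% ± 0.24 of the family in Input PBS, 10.0% ± 1.45 in Input LPS, 4.95% ± 1.44 in Positive PBS and 40.8% ± 5.40 in Positive LPS (SD over libraries). In PBS animals Socs5 and Socs7 took the largest shares. The Socs1 share carries the limit of length given above and may be too low. Socs5 took 38.0% ± 2.85 in Positive PBS and 20.9% ± 2.20 in Positive LPS, and Socs7 took 37.3% ± 1.01 and 21.7% ± 2.11. The level of Socs5 itself fell by 0.37 on the log2 scale with LPS in the positive fraction (edgeR adjusted p = 0.000583), whereas the change of Socs7 was -0.29 (adjusted p = 0.00474), a difference of under 25% that was not called.

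**Figure D4:**
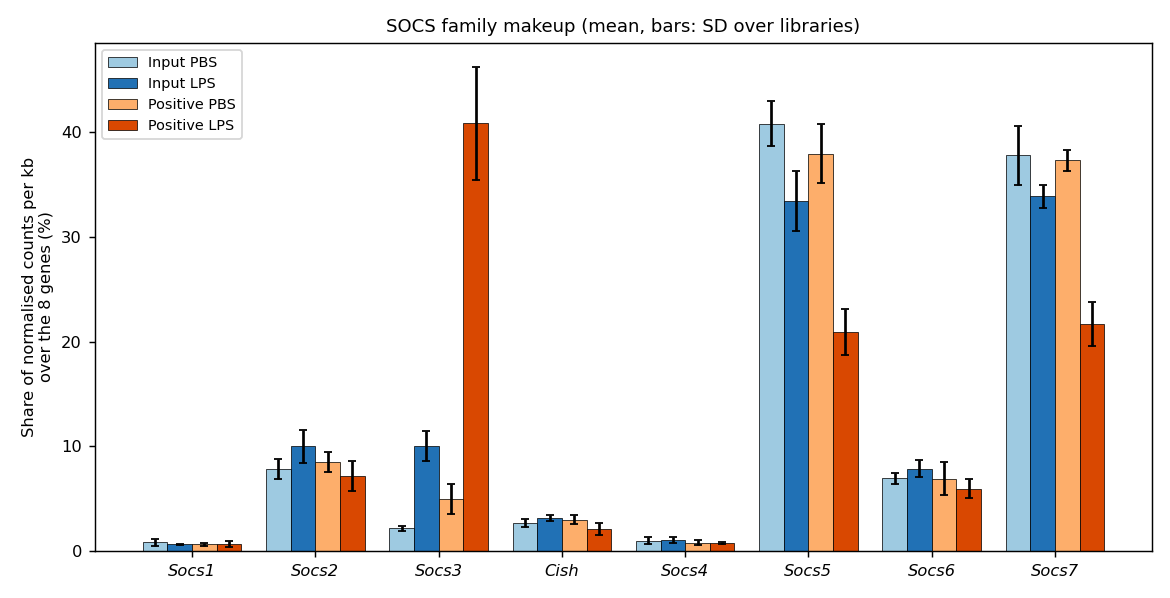
Share of each SOCS gene in the summed normalised counts per kilobase of the 8 family members (y axis, percent), by gene and group. Bars are means and error bars SD over libraries (n = 4, and 5 in Positive LPS). The Socs3 share is 40.8% in Positive LPS and 10.0% or less elsewhere, and the shares of Socs5 and Socs7 are lowest in Positive LPS.

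Of 14 related ligands of the gp130 and IL-10 families 8 were tested. In the positive fraction 2 of 8 rose and 1 fell, against 33.8% of all genes called and 19.0% called higher, and in input none was called by edgeR. Ebi3, a shared subunit of IL-27 and IL-35, rose by 1.29 (SE 0.23, edgeR adjusted p = 0.000251) and Osm, encoding oncostatin M, rose by 1.04 (SE 0.26, adjusted p = 0.00376). Clcf1, a ligand of the ciliary neurotrophic factor receptor, fell by 1.05 (SE 0.38, adjusted p = 0.0340). The list's median change was -0.18 in the positive fraction and 0.13 in input.

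Among 18 related receptor chains tested, 10 rose and 2 fell with LPS in the positive fraction (median 0.35), and 5 rose and none fell in input (median 0.13), where 19.0% and 7.16% of all genes were called higher. Osmr, the oncostatin M receptor chain that pairs with gp130, rose by 2.52 in the positive fraction (129 to 740 normalised counts, SE 0.29, edgeR adjusted p = 2.42e-06) and by 2.79 in input (115 to 797, SE 0.30, adjusted p = 4.20e-06). Il2rg, the common gamma chain, rose by 2.81 (SE 0.25, adjusted p = 1.29e-07) and 1.81 (SE 0.30, adjusted p = 0.000397), and Csf2rb, the common beta chain, by 1.95 (SE 0.14, adjusted p = 7.27e-09) and 1.67 (SE 0.17, adjusted p = 1.65e-06). For the difference between fractions 3 receptors were called by edgeR and are named for that reason. Csf2ra (1.42, adjusted p = 0.00552) and Ifngr2 (0.50, adjusted p = 0.0441) differed towards the positive fraction. With LPS their means there went from 767 to 1501 and from 1853 to 2352 normalised counts. In input the means were lower with LPS, 552 to 404 and 1272 to 1141, and neither was called. Il13ra1 rose in input (0.93) with a value of -0.23 in the positive fraction, a difference of -1.16 (adjusted p = 0.000943).

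The rises below the receptors were in Stat2, Stat3, Stat5a, Stat6 and the kinase gene Tyk2 in the positive fraction, and in Stat2, Stat3 and Stat5a in input. Of 10 JAK and STAT genes examined, 5 rose in the positive fraction (median 0.39) and 3 in input (median 0.17), and none fell, with 19.0% and 7.16% of all genes called higher. In the positive fraction Stat3 rose by 1.03 (2744 to 5598 normalised counts, SE 0.12, edgeR adjusted p = 3.67e-06), and in input it rose by 1.10 (1820 to 3913, SE 0.13, adjusted p = 9.83e-06). Stat5a rose by 0.76 in the positive fraction (adjusted p = 0.000173) and by 0.48 in input (adjusted p = 0.0297), Stat6 by 0.52 in the positive fraction (SE 0.14, adjusted p = 0.00604) and Stat2 by 0.55 in input (adjusted p = 0.0177). Of the kinase genes, Tyk2 rose by 0.48 in the positive fraction (SE 0.19, edgeR adjusted p = 0.0467). Jak1 (0.05 and 0.09) and Jak2 (0.11 and 0.08), whose kinases also bind gp130, had small changes that were not called in either fraction.

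Of 13 other inhibitors of the pathway, 2 rose and 1 fell in the positive fraction and 1 rose in input, beside 19.0% and 7.16% of all genes called higher, so these counts do not stand out from the background. Ptpn6, the phosphatase SHP-1, rose by 1.66 (SE 0.21, edgeR adjusted p = 8.37e-06) and 1.56 (SE 0.24, adjusted p = 0.000214). Ptpn1, the phosphatase PTP1B, rose by 1.20 in the positive fraction (SE 0.09, adjusted p = 2.26e-08), and its difference from input, where the change was 0.14, passed the test (1.06, adjusted p = 0.000111). Socs5 fell by 0.37 (SE 0.07, adjusted p = 0.000583). Of the 4 genes that act in shedding of the IL-6 receptor from the cell surface, Rhbdf2, a partner of the protease ADAM17, rose by 2.15 in the positive fraction (SE 0.27, adjusted p = 5.28e-06), and in input by 1.82 (SE 0.30, adjusted p = 0.000420). Adam17 rose by 0.83 in the positive fraction (SE 0.13, adjusted p = 5.59e-05), with a difference from input of 0.80 (adjusted p = 0.0127), and Adam10 was not called in either (0.26 and -0.04).

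Genes described as STAT3 targets rose together with Socs3. Of 27 tested, 24 rose and 1 fell in the positive fraction (median 1.75) and 21 rose and 1 fell in input (median 1.80), with 19.0% and 7.16% of all genes called higher. The list was written with earlier results of these libraries known and holds general inflammatory genes, so its direction is not independent evidence. In the positive fraction the largest rises were in Il1r2, the decoy receptor for IL-1 (6.58, SE 0.58, edgeR adjusted p = 9.34e-08), Saa3, an acute-phase protein (6.35, SE 0.44, adjusted p = 5.26e-09), and Lcn2, encoding lipocalin 2 (6.30, SE 0.33, adjusted p = 2.02e-10). In input they were in Lcn2 (5.48, SE 0.32, adjusted p = 3.64e-09), Steap4 (5.07, SE 0.41, adjusted p = 1.86e-07) and Timp1 (4.66, SE 0.34, adjusted p = 5.28e-08). The lowered gene was Vegfa in both fractions (-1.10 and -1.24). For the difference between fractions 6 of the 27 were called, all towards the positive fraction (6.88% of all genes were called, 5.46% in this direction), among them Nfil3 (1.39, adjusted p = 0.000623) and Sbno2 (0.85, adjusted p = 0.00325). Neutrophil markers moved with these lists as given above.

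**Figure D5:**
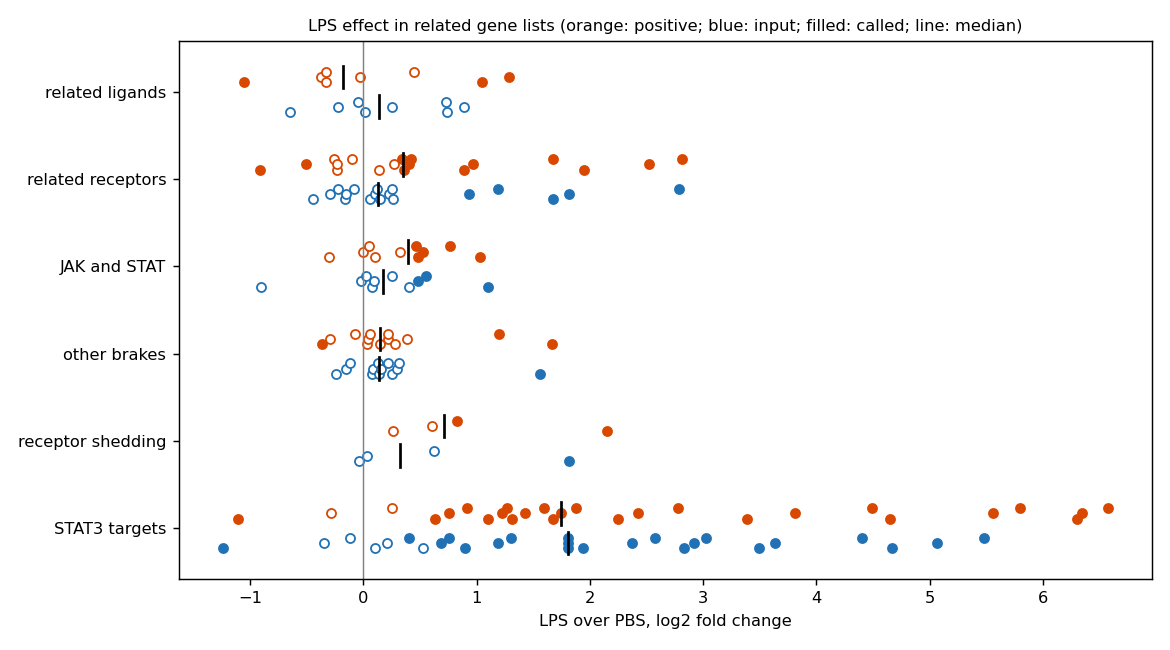
Fitted log2 fold change, LPS over PBS (x axis), of each tested gene in 6 related lists (y axis), in the positive fraction (orange) and in input (blue). Filled points passed the test and black lines are list medians. The STAT3 target list has medians of 1.75 and 1.80, and the receptor list has medians of 0.35 and 0.13 with Il2rg and Osmr at its upper end.

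The genes whose levels followed each member most closely were ranked over the 17 libraries. By Pearson's r of log2 normalised counts, Socs3 was most like Sbno2 (0.992), Slc39a1 (0.987) and Irak3 (0.986). Il10ra was most like Laptm5 (0.998), Il10rb like Dock8 (0.995) and Il6ra like Adap2 (0.989). The best matches of Socs2 (Tdp2, 0.929), Il6st (Mrps5, 0.878), Socs1 (Tmem126a, 0.771) and Cish (Lrrn4cl, 0.751) were weaker. These points share the 4 groups and the fraction contrast, so the values describe a shared pattern over groups.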

How the data were processed

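TRAP-RNAseq of input and positive fractions was taken as deposited. The authors trimmed reads, aligned them by strand to Mm10 in Strand NGS and deposited estimated counts per gene and log2 values (normalised by DESeq, per the labels, and set relative to Input PBS). Of the nonzero estimated counts 81.3% were not whole, and they were rounded to whole numbers here. The deposited log2 values were used as an alternative, chosen after seeing the data, since their scaling includes the nearly empty input library of animal 271.

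Median-of-ratios size factors over 15766 genes ranged from 0.766 to 1.32, and 14803 of 21427 genes with a count had over 20 normalised counts in every library of at least 1 group. The study used analysis of variance with the same fold limit. Here edgeR 4.0.16 (quasi-likelihood, 1 mean per group, R 4.3.3) was used with Benjamini-Hochberg adjustment over all genes tested, and adjusted p-values are from edgeR unless another tool is named. SE is the size of the log2 fold change divided by the square root of F. The main edgeR fit was tested on simulated counts for the LPS effect in the positive fraction only. Those libraries were simulated as independent, without animal pairs, so the fraction comparisons were not tested in this way. Limits of 3 counts cover counting error only, since reads carry no molecular identifiers.

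The fractions of an animal come from the same lysate, so its libraries form a pair. Deviations from the group means correlated at r of 0.160 to 0.519 over the 8 animals with both fractions. Animals are separate mice, so p-values for LPS within a fraction compare animals. The main fit had no animal term, so for positive over input and the difference between fractions it took an animal's libraries as independent. Tests of these comparisons used the pairing only with the animal as a replicate block. Alternatives were TMM and upper-quartile scaling, no filter, a mean of at least 100 normalised counts, DESeq2 1.42.0, limma 3.58.1, the animal as a replicate block (limma's consensus correlation for LPS effects, an animal term in edgeR for the others), only the libraries compared, sex as a covariate, no animals numbered in the 500s, all 18 libraries and leaving out each library. Members and lists were chosen with earlier results of these data known. Named are all 10 members, their 3 most alike genes (the first for most), and from each pathway list the 3 called genes with the largest LPS change and a mean of at least 20 normalised counts, with exceptions stated. Exon lengths are from GENCODE M21 (GRCm38), promoters from RefSeq GRCm38.p6 and gene coordinates from the deposited table (Mm10). Chil3 (monocyte list) and Ifnlr1 (receptor list) were not found under these symbols. Of the lists, 2 genes are not reported here and were left out of the list counts and sums.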

Additional observations from a re-analysis of the deposited data

Results flagged for a closer look

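In 5 of 40 gene-by-group sets of normalised counts, 1 library stood apart by Dixon's criterion, which chance flags in about 1 in 20 groups. These were Il6 in Input PBS 273 (12.3), Il6st in Positive PBS 272 (3704), Il10rb in Input LPS 270 (172), Socs1 in Positive LPS 266 (84.5) and Socs2 in Input LPS 270 (667). Input LPS 270 accounted for both the low Il10rb and the high Socs2 value. The LPS change of Socs3 differed between the fractions, being larger in the positive fraction by 1.31 on the log2 scale (SE 0.30, edgeR adjusted p = 0.0103).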

How the results depend on the processing

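No change of direction was seen for Socs3 in any of the 5 comparisons under the alternatives run, and its calls held except for the difference between fractions without the animals numbered in the 500s (adjusted p = 0.0930). Of the 10 members, 1 was called for LPS in the positive fraction, with a leave-one-out range of 1 to 2 (Lif without Input LPS 267). In input 2 were called, with 1 without the 500s and a leave-one-out range of 1 to 2 (Il6ra without Input PBS 273 or Input LPS 270). For positive over input 4 were called in each treatment, with leave-one-out ranges of 4 to 5 after PBS and 4 to 6 after LPS (Il6st, Cish or Lif). For the difference between fractions 1 was called, 2 with the animal as a replicate block (Il6ra at -0.92) and 0 without the 500s, where 2 had an unadjusted edgeR p under 0.05. Without the 500s the genes called fell from 1839 to 1083 in input and from 1018 to 323 for the difference, and the replicate block raised the latter to 1908. The block changed no other member's call. Signs of small changes that were not called turned for Cish with LPS in the positive fraction (0.019 with all 18 libraries, 0.0057 with deposited log2 values, leave-one-out -0.15 to 0.049), Cish in positive over input after PBS (-0.065 with upper-quartile scaling, -0.11 with all 18 libraries and with deposited values, leave-one-out -0.049 to 0.099), the Il6st difference (0.0079 with TMM, 0.027 with all 18 libraries, 0.018 with deposited values, leave-one-out -0.10 to 0.10) and the Il10rb difference (0.033 without the 500s, leave-one-out -0.24 to 0.035). They also turned when 1 library was left out for Il6ra with LPS in the positive fraction (-0.015 to 0.28), Socs2 in positive over input after PBS (-0.10 to 0.026) and the Il10ra difference (-0.10 to 0.054). Upper-quartile scaling, all 18 libraries and the deposited values put the median of all genes in positive over input after LPS at -0.16, -0.11 and -0.14, against -0.027, called Cish lower in the positive fraction after LPS (-0.41, -0.39 and -0.40), and shifted the split of genes called higher and lower in PBS animals from 3113 and 2785 to 2515 and 3541, 2224 and 3698, and 2283 and 3890. After LPS the split was 4091 and 3817, and became 3260 and 5078, 3416 and 4494, and 3362 and 4828. For LPS in the positive fraction it was 2809 and 2199, and became 2373 and 2794, 3087 and 1672, and 3119 and 1750. The causes were not tested. Of the member values under all alternatives, 1098 kept direction and side of the threshold, 32 turned sign, 13 gained a call and 4 lost one. The 1098 include values that were not called in any fit. Depth limits Il6, Lif and Il10, which lay near 3 counts in some libraries.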
